A study of Drosophila melanogaster with 3 samples.

Results

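Of the 1910 Drosophila melanogaster genes of the Ensembl annotation whose symbol starts with lncRNA:CR, 123 (6.44%) had a promoter peak of the CG7368 protein that no protein-coding gene shared. They were chosen by the peaks themselves. A gene was taken where the summit of a peak on the optimal list lay within 500 bp of one of its transcription start sites (TSSs) and no protein-coding TSS lay within 500 bp of that summit. The annotation held 18358 genes once transposable elements were left out, 13986 of them protein-coding. The 123 genes were reached through 125 peaks, because 4 peaks served 2 genes each and 6 genes had 2 such summits. Having such a peak, its signal and its distance from the TSS are therefore descriptions and were not tested.

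Chromatin immunoprecipitation and sequencing had been done on whole prepupae, mixed in sex and of unknown age, from a transgenic line in which CG7368 carries a green fluorescent protein at its C terminus. The precipitation used an antibody against that tag. The series holds 3 biological replicates of this 1 group, and chromatin was sonicated to 200 to 800 bp. A possible control experiment named in the labels is not analysed here. Since the whole animal was used, binding in few cells and weak binding in many cannot be told apart, and the labels do not say which promoter drives the tagged gene. Each replicate list and the list pooled over replicates held 30000 regions, and the optimal list, which the authors kept for its reproducible ranks, held 5246. Read depth is unknown. The signal of a peak is the authors' own value and ranks peaks within 1 list only, where rank 1 is the highest.

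Long noncoding RNAs are transcripts without a long open reading frame, and in flies most of them are known only by a CR number. Their promoters are bound by many of the same kinds of proteins as promoters of coding genes. A peak near a TSS may also belong to an enhancer, which can itself be transcribed, so a promoter peak here is a statement of position and not of a regulated gene. The tagged gene CG7368 (FBgn0036179, 3L, 11597202 to 11605374, dm6) encodes, in its longest annotated protein, 530 residues with 4 matches to the spacing of C2H2 zinc fingers, a domain that commonly binds DNA. Its nearest lncRNA of the 123 was CR45251, 247129 bp away. Gene symbols are given below without the prefix lncRNA:, and no function is attributed to any CR gene.

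The highest peak was that of CR31044, a gene of 5106 bp and 3 transcripts on 3R. It had a signal of 1430 and rank 16 on the optimal list, and it ranked 15, 16 and 20 in replicates 1, 2 and 3. Its summit lay 123 bp upstream of the TSS and 5733 bp from the nearest protein-coding TSS, that of eEF1gamma, a subunit of a translation elongation factor. CR46102 followed with a signal of 1140, rank 43 and replicate ranks of 34, 41 and 41. It lies antisense within LpR2, a lipophorin receptor gene, and its summit was 170 bp inside the lncRNA and 2268 bp from the LpR2 TSS. CR44619 on X had a signal of 987, rank 59 and replicate ranks of 41, 61 and 76, with the summit 488 bp downstream of the TSS. CR44676 on 3L had a signal of 697, rank 147 and replicate ranks of 109, 191 and 163. Each of these 4 peaks was thus within the 191 highest of 30000 regions in every replicate. The sequences of these summits show what the 4 highest own-promoter sites hold. Each is 101 bases of dm6 centred on the optimal summit, written 5′ to 3′ on the strand of the lncRNA gene. Capitals mark any of 12 searched words, or the reverse complement of one, and a run without capitals holds none of them.
CR31044, chr3R:29214389-29214489, plus strand: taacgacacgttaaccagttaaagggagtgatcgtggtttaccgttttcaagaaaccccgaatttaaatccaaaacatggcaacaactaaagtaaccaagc
CR46102, chr3R:25738147-25738247, plus strand: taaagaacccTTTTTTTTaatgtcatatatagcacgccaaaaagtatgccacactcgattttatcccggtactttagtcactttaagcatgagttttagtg
CR44619, chrX:12752305-12752405, plus strand: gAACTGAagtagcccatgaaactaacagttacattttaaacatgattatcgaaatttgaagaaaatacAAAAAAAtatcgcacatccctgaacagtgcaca
CR44676, chr3L:19560760-19560860, minus strand: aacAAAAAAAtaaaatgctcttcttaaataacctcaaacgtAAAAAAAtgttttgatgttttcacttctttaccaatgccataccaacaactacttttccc
The top site, that of CR31044, holds none of the 12 words. The other sites hold a run of 7 or more A or T, CR44676 holds a pair of such runs, and CR44619 also holds AACTGA, the reverse complement of TCAGTT.

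The next members by signal were CR45668 and CR45595. CR45668, 17510 bp long on X, had a signal of 651, rank 174 and replicate ranks of 283, 187 and 176. Its summit was intergenic, 214 bp upstream of its TSS and only 658 bp from the TSS of Act5C, a cytoplasmic actin gene. CR45595 on 3R had a signal of 596, rank 230 and replicate ranks of 316, 212 and 200, with its nearest protein-coding TSS, that of l(3)neo38, at 1230 bp. CR44867 on 2L had a signal of 575, rank 247 and replicate ranks of 307, 322 and 218. It lies antisense within beat-Ib, of the beaten path family of immunoglobulin proteins that act in axon guidance. CR46035 on 3R had a signal of 559, rank 272 and replicate ranks of 240, 242 and 363. It lies antisense within osa, which encodes a subunit of the Brahma chromatin remodelling complex. Their summit sequences, shown because they hold words that the 4 highest lack, follow under the same conventions.
CR45595, chr3R:11780308-11780408, plus strand: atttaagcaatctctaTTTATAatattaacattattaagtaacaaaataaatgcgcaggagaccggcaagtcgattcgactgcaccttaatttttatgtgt
CR44867, chr2L:15911234-15911334, plus strand: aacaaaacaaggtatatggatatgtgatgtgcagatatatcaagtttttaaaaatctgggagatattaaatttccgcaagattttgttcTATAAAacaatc
CR46035, chr3R:17703384-17703484, plus strand: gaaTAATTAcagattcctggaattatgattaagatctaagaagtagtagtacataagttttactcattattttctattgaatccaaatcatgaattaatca
CR45595 and CR44867 hold TATAAA, the letters of a TATA box, on opposite strands relative to the lncRNA, and CR46035 holds TAATTA, a core that many homeodomain proteins bind.

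**Figure D1:**
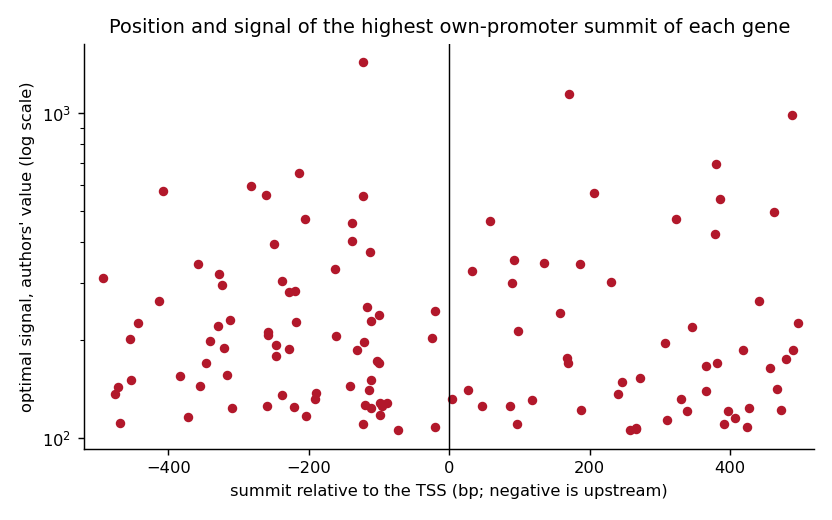
Each point is 1 of the 123 lncRNA:CR genes, placed by the distance of its highest own-promoter summit from its TSS (x axis, bp, negative is upstream) and by the authors' optimal signal (y axis, log scale). Points fill the whole range of distances, and genes of high signal such as CR31044 (1430, 123 bp upstream) and CR44619 (987, 488 bp downstream) stand at near and far positions alike.

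Summits were spread over the window allowed by the rule and were not gathered at the TSS. The median distance between summit and TSS was 246 bp for the 123 lncRNA genes (quartiles 123 and 365.5 bp), against 140 bp for the 1803 optimal peaks at protein-coding promoters (quartiles 74 and 251.5 bp). Within 100 bp of the TSS lay 20 of the 123 lncRNA summits (16.3%), against 618 of the protein-coding ones (34.3%). Upstream of the TSS lay 70 lncRNA summits (56.9%), against 1393 protein-coding ones (77.3%). When the window was 250 bp, the lncRNA summits lay upstream in 66.7% of genes. Around all lncRNA:CR TSSs, with the same limit on protein-coding TSSs, 11 summits fell within 100 bp upstream and 11 within 100 bp downstream. Upstream, 20 fell at 100 to 200 bp and 21 at 200 to 300 bp, against 8 and 8 at the same distances downstream. Downstream, 16 fell at 300 to 400 bp and 15 at 400 to 500 bp, against 14 and 9 upstream. Just beyond the window of the rule, at 500 to 600 bp, 25 fell downstream and 12 upstream. Distances up to 500 bp were part of the rule. None of these distances were tested, and they rest on how well each TSS is annotated.

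Summits were also counted per length of sequence, at all lncRNA:CR TSSs and leaving out sequence within 500 bp of a protein-coding TSS. In the first 100 bp from an lncRNA TSS there were 64.5 optimal summits per Mb (22 summits, exact Poisson 95% interval 40.4 to 97.7, counting error only). From 101 to 250 bp there were 96.1 per Mb (47 summits, interval 70.6 to 128), and from 251 to 500 bp there were 71.1 per Mb. Beyond the window of the rule the density went on at 68.8 per Mb from 501 to 1000 bp and 56.1 per Mb from 1001 to 2000 bp. It was 39.2 per Mb from 2001 to 5000 bp and 26.1 per Mb farther away, against 28.9 per Mb over all such sequence. Around lncRNA TSSs the density was thus highest from 101 to 250 bp and lower with each class beyond that. The interval of the first 100 bp overlapped those of every class out to 5000 bp, that from 2001 to 5000 bp being 34.9 to 44.0. The interval from 101 to 250 bp also overlapped those from 251 to 500 bp (53.7 to 92.3) and from 501 to 1000 bp (56.2 to 83.4). The order of these classes is therefore not settled, and summits within 500 bp are those the rule used. Around protein-coding TSSs it was 173 per Mb in the first 100 bp and 159 per Mb from 101 to 250 bp, and then 68.9 and 43.6 per Mb at 251 to 500 and 501 to 1000 bp. The share of genes that have a summit this close followed the same order. Any optimal summit within 500 bp was found for 165 lncRNA:CR genes (8.64%), 42 of them only through a summit shared with a protein-coding TSS. For protein-coding genes the number was 2079 (14.9%). These have more TSSs at which a summit can fall, 19649 over 13986 genes, against 2012 over 1910 lncRNA:CR genes. The shares per gene were not adjusted for this.

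**Figure D2:**
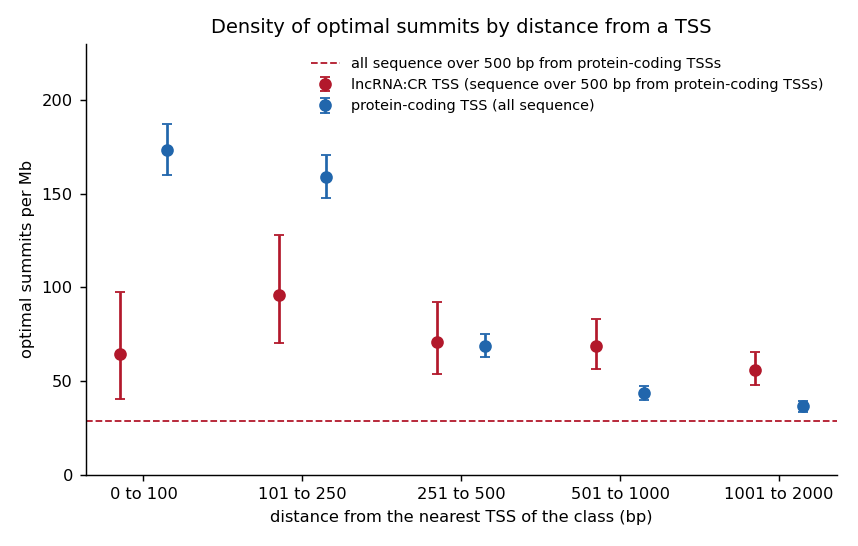
Optimal summits per Mb (y axis) by distance from the nearest TSS (x axis, bp classes), for lncRNA:CR TSSs in sequence over 500 bp from protein-coding TSSs (red) and for protein-coding TSSs in all sequence (blue), with exact Poisson 95% intervals for counting error only. The dashed line is the mean of the sequence used for lncRNA TSSs, 28.9 per Mb; the lncRNA density lies between 56.1 and 96.1 per Mb throughout, while the protein-coding density is 173 per Mb in the first class and 36.5 per Mb in the last.

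The lncRNA promoter peaks held both weak and strong signals. Their median signal was 179 (quartiles 128 and 296, range 106 to 1430, 125 peaks), with an order-statistic 95% interval of 155 to 204. That interval is one for the median and treats the peaks as independent draws. It only describes the chosen peaks, because the rule took them from the same optimal list and they share the same libraries. Peaks at protein-coding promoters had a median of 177 (quartiles 131 and 304, highest 3148), and peaks away from both kinds of promoter had a median of 164 (quartiles 127 and 247, 3270 peaks). Above the median of the whole optimal list lay 56% of the lncRNA peaks, 53.8% of the protein-coding promoter peaks and 47.6% of the peaks elsewhere. Among the highest 250 peaks of the list were 7 of the lncRNA peaks (5.60%, against 4.77% of all optimal peaks), and among the highest 1000 were 28 (22.4%, against 19.1%), shares near those of the list as a whole. Of the 125 peaks, 2 overlapped a stronger optimal peak, at CR45531 and CR44723, and neither of those stronger peaks was at a protein-coding promoter. Over the 125 peaks the signal had Spearman's rho of 0.022 for distance from the TSS, 0.035 for distance from the nearest protein-coding TSS and 0.0013 for the A and T share, each a description over peaks of the same libraries.

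**Figure D3:**
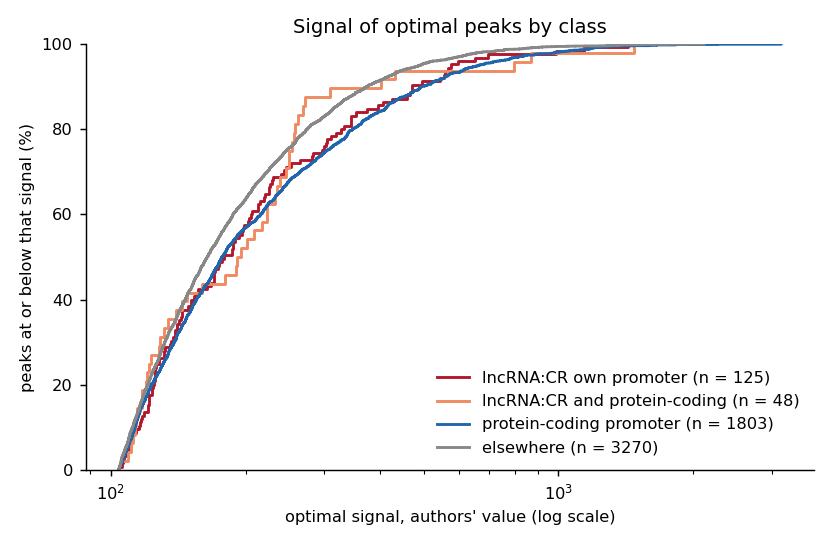
Cumulative share of optimal peaks (y axis, %) at or below a given optimal signal (x axis, the authors' value, log scale) for peaks at own promoters of lncRNA:CR genes, at promoters shared by an lncRNA:CR and a protein-coding gene, at protein-coding promoters and elsewhere. The lncRNA curve (median 179) runs along the protein-coding promoter curve (median 177), and the curve of peaks elsewhere (median 164) lies to its left over most of its length.

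Most lncRNA promoter peaks were found in every replicate. In the full lists of replicates 1, 2 and 3 a region overlapped 124, 125 and 125 of the 125 peaks. The same held for 97.6%, 99.2% and 99.4% of protein-coding promoter peaks and 99.4%, 99.8% and 99.9% of peaks elsewhere. Such overlap is therefore general to optimal peaks. Among the 5246 highest regions of each list the numbers of lncRNA peaks were 100, 113 and 111. Fewer were high in replicate 1 (80%, against 90.4% and 88.8% in replicates 2 and 3), as was so for protein-coding promoter peaks (82.4%, 86.5% and 86.2%) and for peaks elsewhere (81.3%, 87.6% and 84.7%). With 50% reciprocal overlap in place of 1 bp, 106 lncRNA peaks had a region in every full list, a count not given here for other classes. In all 3 replicates 88 peaks (70.4%) were among the 5246 highest, 24 were so in 2 replicates, 12 in 1 and 1 in none. Protein-coding promoter peaks were among the highest in all 3 replicates in 66.6% of cases and peaks elsewhere in 65.5%. The median rank of the lncRNA peaks was 2243.5, 2570 and 2261 in the 3 replicates, a mean of 2358 ± 184 (SD, n = 3), against 2341 ± 36.6 for protein-coding promoters and 2721 ± 27.6 elsewhere. The lncRNA and protein-coding values thus differed by less than the spread between replicates. Ranks of the lncRNA peaks in pairs of replicates had Spearman's rho of 0.800 for replicates 1 and 2, 0.772 for 1 and 3, and 0.861 for 2 and 3, over 124 peaks. The authors made the optimal list from these replicates, so part of this agreement is built in.

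Single genes differed widely in how steady they were. CR44620 on X was the steadiest, at ranks 4564, 4570 and 4547 in replicates 1, 2 and 3, although its optimal signal was only 128. CR45352 had ranks of 3240, 3172 and 2962, and CR44826 had ranks of 5459, 5160 and 5035. CR42746, antisense within the TSC-22 family gene bun, was at the other end with ranks of 12705, 3155 and 2324, a 5.47-fold range. CR46111, on the same strand within Axn, a scaffold of the Wnt pathway, had ranks of 17585, 3694 and 3757. In both of these replicate 1 was the low one. In 2 others it was replicate 3, with ranks of 3503, 3292 and 16188 for CR45643 and 1624, 2615 and 7675 for CR34044. CR45755 had no region at all in replicate 1 and ranks of 3733 and 4589 in replicates 2 and 3. It was 1 of the 5 genes of lowest signal, at 106 beside CR45643 and CR45754 at 106, CR44743 at 107 and CR43130 at 108. The summit sequences of the steadiest and of the most variable peak are shown as the ends of this range.
CR44620, chrX:13390609-13390709, minus strand: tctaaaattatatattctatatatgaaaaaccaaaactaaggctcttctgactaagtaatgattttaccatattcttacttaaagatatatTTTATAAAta
CR42746, chr2L:12543372-12543472, plus strand: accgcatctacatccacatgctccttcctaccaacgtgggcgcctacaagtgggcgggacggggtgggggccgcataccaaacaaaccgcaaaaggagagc
CR44620 holds TATAAA on both strands in an overlapping match near the right end of the printed stretch, and CR42746 holds none of the words. Within 25 bp of the summit A and T made up 70.6% of bases at CR44620 and 29.4% at CR42746, the lowest of all 125 peaks. The other most variable peaks had 41.2% at CR46111, 82.4% at CR45643 and 54.9% at CR34044, so they shared no base composition.

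**Figure D4:**
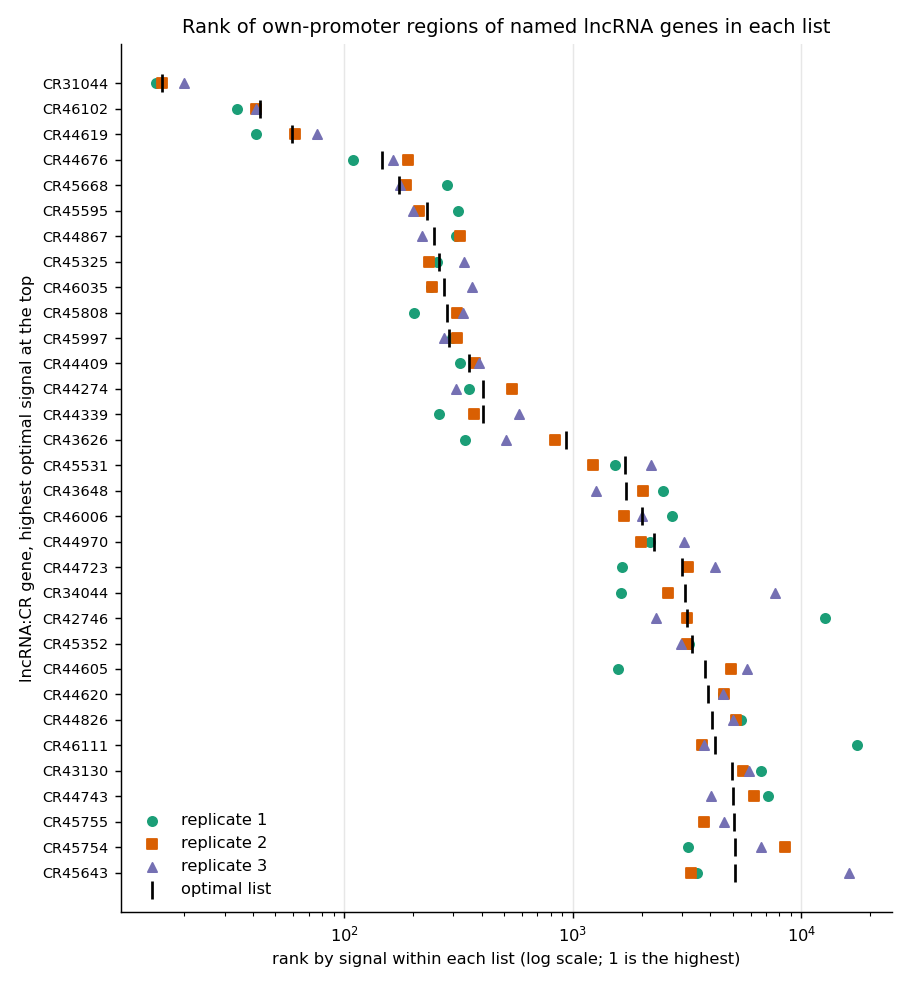
Rank by signal (x axis, log scale, 1 is the highest) of the highest own-promoter peak of each named lncRNA:CR gene (y axis) in replicate 1 (circles), 2 (squares) and 3 (triangles) and on the optimal list (bars). Symbols of the highest genes lie close together, as for CR31044 at 15, 16 and 20, and CR42746, CR46111 and CR45643 each have 1 replicate far to the right, at 12705, 17585 and 16188.

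Under the rule's limit on protein-coding TSSs, the lncRNA genes with a peak were placed in the genome much as lncRNA:CR genes in general. Of the 123, 91 (74.0%) overlapped no protein-coding gene, 23 (18.7%) overlapped one on the opposite strand only, and 9 (7.32%) overlapped one on the same strand only. Over all 1910 lncRNA:CR genes these shares were 70.8%, 18.3% and 10.1%. The limit on protein-coding TSSs was not applied to the 1910. Without it, 23.6% of the genes taken were antisense only, so the likeness in placing depends in part on that limit. Of the 42 genes that share their summit with a protein-coding TSS, which are close to coding genes by construction, 45.2% were intergenic and 38.1% antisense. Median length was 629 bp for the 123 genes and 656.5 bp for all lncRNA:CR genes, and single-exon genes made up 62.6% and 63.7%. Genes with more than 1 annotated transcript made up 18.7% of the 123 and 12.9% of all, and more transcripts give more TSSs at which the rule can be met. By chromosome arm a peak of their own was found for 31 of 517 lncRNA:CR genes on 2L (6%), 22 of 291 on 2R (7.56%), 29 of 442 on 3L (6.56%), 26 of 411 on 3R (6.33%) and 15 of 233 on X (6.44%). No gene was taken on chromosome 4, of 13, or on Y, of 1. The nearest protein-coding TSS was at a median of 3403 bp from the summit. It was within 1000 bp for 13 peaks and over 10000 bp away for 25, up to 58802 bp for CR46006, a gene of 43950 bp.

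Peaks of lncRNA genes inside coding genes lay mostly in introns, with 30 of the 125 summits in an intron, 3 in an exon and 92 intergenic. The 23 antisense genes had a median signal of 226 and the 9 same-strand genes one of 240, against 175 for the 91 intergenic genes, values that describe the list the genes were chosen from. Intergenic genes among the 14 of highest signal include CR44274 (471, replicate ranks 351, 541 and 307) and CR44339 (470, ranks 259, 368 and 582). Their nearest protein-coding TSSs were those of CG13748 at 3403 bp and Psc at 4167 bp. Some of the coding genes that overlap these lncRNA genes encode regulators of signalling, and their share among all such coding genes was not counted. CR44409 (signal 495, replicate ranks 321, 375 and 388) is antisense within Dif, an NF-kappaB factor of the Toll pathway. CR44478 (424, ranks 478, 621 and 469) is antisense within Socs36E, a negative regulator of JAK/STAT signalling. CR44331 (373, ranks 718, 559 and 812) is antisense within puc, the phosphatase that restrains the kinase JNK. CR34052 (344, ranks 1126, 688 and 946) is antisense within Raf, a kinase of the Ras pathway. All 4 were among the highest 5246 regions of each replicate.

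Chromatin and RNA regulators also appear among these hosts. CR44222 (466, ranks 322, 581 and 396) is antisense within kis, a chromodomain remodelling factor. CR46036 (460, ranks 463, 422 and 361) is, like CR46035, antisense within osa, their summits lying 2832 bp apart. CR45997 (545, ranks 296, 311 and 273) lies on the same strand within mbl, the splicing regulator muscleblind, and CR45808 (554, ranks 202, 313 and 332) on the same strand within Hipk, a nuclear kinase. CR45325 (567, ranks 255, 235 and 336) is antisense to Sesn, a sestrin, and to CG46429. Weaker peaks were those of CR43717 within ex, a component of Hippo signalling (246, ranks 2331, 1136 and 1623), CR43399 within ena, an actin regulator (240, ranks 1359, 1689 and 2071), and CR44725 within Egfr, the epidermal growth factor receptor (121, ranks 4381, 5463 and 5777). Other hosts were named for their induction by ecdysone, the hormone that drives the prepupal stage, with CR45820 antisense within Eip63E, a cyclin-dependent kinase (188, ranks 1442, 2513 and 2519), and CR45922 on the same strand within Eip75B, a nuclear receptor (110, ranks 6670, 5931 and 4913). These hosts were named after their values were seen, and no test of their functions was made. Other hosts, such as CG14434, DIP-alpha, ChAT, scrib and aqz, are not described, so the kinds of gene named here are no trait of the hosts as a set. A peak at the lncRNA promoter and an enhancer of the host gene at the same place cannot be told apart in these lists.

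Some lncRNA genes occur in groups. With summits within 10000 bp of each other counted together, 34 of the 123 genes fell into 16 groups. The share for other lncRNA:CR genes or other optimal peaks is not given here, so grouping cannot be called particular to these genes. Where TSSs lie close together, 1 summit can serve a pair of genes. CR44698 and CR44699 share a peak of signal 265, CR44970 and CR44971 one of 186, CR44634 and CR44635 one of 136, and CR44604 and CR44605 one of 132. The 6 genes with 2 own summits were CR43626 (signals 319 and 215), CR45531 (226 and 122), CR46006 (202 and 188), CR44970 (186 and 139), CR44723 (154 and 111) and CR44605 (132 and 119). For CR45531 and CR44723 the paired summits met the same region in each replicate, so their replicate ranks are not separate measurements. In 19 genes the body held at least 1 further optimal summit away from the promoter, and in 12 of these that summit was the stronger one. For CR44743 the stronger summit, of signal 197, is also the own-promoter summit of CR44742, so not every such summit is a separate site. These counts too stand without a share over other genes. The highest such summit was inside CR46035, whose promoter peak of 559 is followed inside the gene by a peak of signal 1524 and rank 13. CR45668 held 5 further summits, the highest of signal 963, against 651 at its promoter.

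Bases at the summits were mostly A or T. In the 25 bp either side of the optimal summit these letters made up 66.3% of bases at the lncRNA promoter peaks (SE 1.02 over 125 peaks), 63.0% at protein-coding promoter peaks (SE 0.301) and 66.5% at peaks elsewhere (SE 0.183). Around the lncRNA summits the share was 52.4% at 250 bp to the left of the summit and 53.4% at 250 bp to its right along the genome. Single lncRNA peaks ranged between 29.4% and 88.2%, with 13 over 80% and 13 under 50%. Base composition was not used by the rule, so the difference from protein-coding promoters was tested at the replicates' own summits. There the lncRNA peaks had 63.9%, 65.3% and 64.8% A and T in replicates 1, 2 and 3, against 62.3%, 62.8% and 63.0% at protein-coding promoters. The lncRNA value was the higher one in every replicate, by 1.61, 2.48 and 1.74 percentage points, a mean of 1.94 ± 0.467 (SD, n = 3). All 3 values come from the same optimal peaks. In replicates 1, 2 and 3 the lncRNA summits lay a median of 27.5, 16 and 19 bp from the optimal ones. Much of the same sequence was thus read each time, so the SD and the test below cover shifts of summits, not separate sequences. In wider windows the mean difference was smaller, at 1.52 points within 50 bp and 0.995 points within 100 bp. The exact two-sided sign-flip permutation test gave p = 0.25, the smallest p that 3 replicates allow, so the threshold of 0.05 could not be reached. On the same measure the lncRNA peaks had 64.7% ± 0.715 and peaks elsewhere 66.2% ± 0.443 (SD, n = 3 each).

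**Figure D5:**
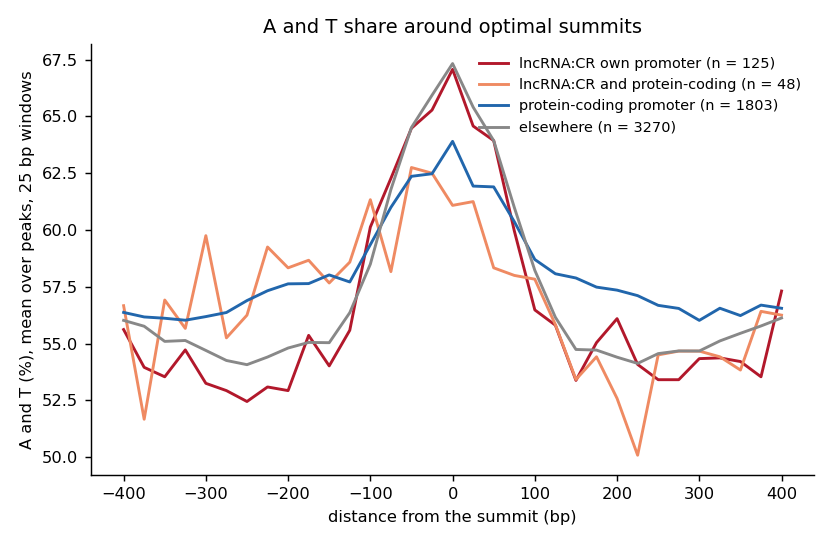
Mean share of A and T in 25 bp windows (y axis, %) by distance from the optimal summit along the genome (x axis, bp) for the 4 classes of optimal peaks. At the summit the lncRNA curve reaches 67.1% and the protein-coding promoter curve 63.9%; at 250 bp to the left they are at 52.4% and 56.9%, and at 200 bp to the right at 56.1% and 57.4%.

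Of the 12 words searched on both strands within 50 bp of the summit, TATAAA was the most frequent at lncRNA promoter peaks. It was found at 25 of 125 peaks (20%, Wilson 95% interval 13.9 to 27.9%), against 18.2% at protein-coding promoters, 20.8% elsewhere and 19.9% of all 5246 optimal peaks. In windows of the same length centred 300 bp to the left and right of the same lncRNA peaks it was found in 5.6% and 9.6%. At the replicates' own summits the share was 18.2% ± 1.89 for lncRNA peaks and 18.4% ± 0.258 for protein-coding promoters (SD, n = 3 each), less apart than the replicates were from each other. The run AAAAAAA was found at 23 lncRNA peaks (18.4%), against 12.3% at protein-coding promoters and 14.2% of all optimal peaks, with a Wilson interval for the lncRNA peaks of 12.6 to 26.1%. TAATTA was found at 10 (8%), against 8.39% of all optimal peaks, and TCAGTT, which resembles the initiator element, at 10 (8%), against 7.51%. TGATAAG or AGATAAG, which GATA factors bind, was found at 5 (4%), against 3.72%. The remaining words were rare. GAGAGAG was found at 3 lncRNA peaks, CAGCTG and CACGTG at 2 each and TGACTCA at 1, against 2.15%, 3.62%, 0.553% and 0.801% of all optimal peaks. TATCGATA, CACACAC and GGTCACACT were found at none of the 125, for which the Wilson interval reaches 2.98%, against 0.762%, 2.86% and 0.343% of all optimal peaks. No word occurred at 61 of the 125 peaks, CR31044 among them, and the share of all optimal peaks without a word is not given here. AAAAAAA and TATAAA are themselves made of A and T only, and the A and T share moves with the class of peak. The part of base composition in these shares was not tested.

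The lncRNA genes that carry a name of their own lie outside the 123. Of 24 such names looked up, 14 were in the annotation under that spelling, and 1 of them, Hsromega, the heat-shock RNA that organises omega speckles, had an optimal promoter summit of its own, with signal 305 and rank 1020. A further 9 had a weaker region on the pooled list only. These included iab8 of the bithorax complex at a pooled signal of 96.0, flam, the piRNA cluster flamenco, at 92.9, and the dosage compensation RNAs roX1 at 71.6 and roX2 at 45.3. On the pooled list 548 lncRNA:CR genes had an own-promoter region, and the 123 with an optimal peak are 22.4% of them. That percentage follows from the rule.

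At the borders of the rule the genes taken and left out were close in signal or position. CR43648, with its summit 496 bp from the TSS (signal 225), was just inside the distance limit, and CR43973 at 503 bp (signal 360) just outside it. CR44826, with the TSS of speck at 507 bp (signal 124), was just inside the limit on protein-coding TSSs, and CR45036 at 475 bp (signal 402) just outside it. CR45643, at a signal of 106, was the lowest of the 123 on the optimal list, and CR43651, at 104 on the pooled list, had the own-promoter region just below the lowest signal of that list.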

How the data were processed

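Chromatin immunoprecipitation of tagged CG7368 was measured in 3 libraries of whole prepupae, 1 group. The peak lists are the authors', in dm6 coordinates. Signal was taken as the authors deposited it, and no label or header gives its formula. The −log10 q-value that the authors deposited beside it was read only to check the lists. The labels name irreproducible discovery rate input lists and an optimal list. The peak caller, aligner and read numbers were not given in the sources used here. Depth per sample is therefore unknown. No table column of any other sample was used.

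Lists were read with Python 3.11.15, pandas 2.3.3, numpy 2.4.6 and scipy 1.17.1, and plotted with matplotlib 3.10.9. Genes came from Ensembl release 115, and all 123 genes had the same ends in RefSeq. Sequences were read from the RefSeq dm6 genome. A region of a replicate was matched to an optimal peak by an overlap of at least 1 bp, taking the one of highest signal, and a neighbouring peak can supply it. The rule and the word search were tested on simulated data. Wilson and Poisson intervals, at 95%, cover counting error only. Peaks are not independent animals.

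The genes, words and name list were chosen with earlier results of these data known. Named are CG7368, the 14 genes of highest and the 5 of lowest signal, those with 2 or more own summits, the 4 of largest and 4 of smallest rank spread, those absent from a replicate, and those at each limit. Other genes were named after their values were seen. Alternatives were other distance limits, windows, overlaps, parts of the list, and each replicate left out.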

Additional observations from a re-analysis of the deposited data

How the results depend on the processing

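Depth is unknown, there is 1 group, and no input library is used here, so none of the peaks could be compared with unspecific enrichment. No paired analysis was possible because there is 1 group. The number of lncRNA genes taken was 123, and it depended on the limits: 69 with a TSS window of 250 bp, 208 with one of 1000 bp and 70 on the part of the optimal list above its median signal. On that part the median signal was 259 and the A and T share 67.1%, and with no limit on protein-coding TSSs the A and T share was 64.9%. With the 250 bp window the share of upstream summits was 66.7%. The TATAAA share was 8% within 25 bp and 29.6% within 100 bp, as windows of other lengths hold other amounts of sequence. With 50% reciprocal overlap the mean of the median ranks was 2681. With that overlap 68 peaks were among the highest regions of every replicate, against 88 with 1 bp, and 106 were in every full list, against 124. The A and T difference of 1.94 points kept its direction but was 1.52 within 50 bp and 0.995 within 100 bp. Without each replicate in turn that difference was 1.68 to 2.11 points, the peaks among the highest regions of the remaining replicates numbered 90 to 103, those in the full lists 124 to 125, and the mean of the median ranks was 2252 to 2416. An alternative chosen after seeing the data, leaving out the 2 peaks that overlap a stronger one, gave a median signal of 186.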
